A study of Rattus norvegicus with 6 samples.

Results

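The genes described here are 35 genes of the cell division cycle, from the cyclins and kinases that drive it to the proteins that copy DNA and pull chromosomes apart. They were taken as a fixed list of gene symbols, and for each symbol the brightest probe set (the group of probes on the array that reports 1 transcript) was used. Of the 35 symbols, 32 were matched to a probe set that carried no second symbol, of 18166 genes measured in all. The other 3, Rrm1, Tk1 and Birc5, were not matched and are not analysed here. The measured genes fall into 6 genes of the G1 to S transition, 7 of replication licensing and the replication fork, 2 of nucleotide supply, 8 mitotic cyclins, kinases and their regulators, and 9 of the spindle and the chromosomes.

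A dividing cell leaves G1 when D-type and E-type cyclins activate their kinases and free E2F transcription factors, which switch on genes for DNA synthesis. The MCM helicase is loaded on DNA, PCNA clamps the polymerases, and thymidylate synthase and ribonucleotide reductase supply the nucleotides. Cyclin A and cyclin B with Cdk1, the Aurora and Polo kinases and the spindle proteins then carry the cell through mitosis, and most of their genes are quiet in cells that have stopped dividing. Neurons have stopped dividing, so in a neuronal culture RNA of these genes can come from glia and other dividing cells as well as from the neurons. In bulk RNA, fewer cells of a type and less RNA per cell cannot be told apart.

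The cells were primary hippocampal neurons of rat embryos at day 18. All cultures received 10 µM 5-fluorodeoxyuridine (FUDR), a nucleoside analogue whose phosphorylated form binds and blocks thymidylate synthase and which is used to hold back dividing cells, so no group without the drug is at hand. At 4 days in vitro they were infected with adeno-associated virus (AAV) at 1800000 infectious units per ml, carrying either a control shRNA or an shRNA against Ncoa3, a coactivator of nuclear receptors, and total RNA was taken at 14 days in vitro. Each group has 3 arrays, 1 from each of 3 experiments. The labels name neither the promoter of the shRNA, nor the number of shRNA sequences, nor how many animals went into a culture. The p-values measure the spread between these arrays, which may be technical.

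Values are log2 signals, so a difference of 1 is a doubling. The deposited array medians lay between 7.08 and 7.25 with control shRNA and between 6.81 and 6.97 with Ncoa3 shRNA, and over all genes the median deposited difference (Ncoa3 shRNA minus control shRNA) was -0.25. Changes are therefore given after quantile normalization, which gives all 6 arrays the same distribution of signal, unless a value is called deposited. Many deposited values are identical on several arrays of the same group. A processing step shared by the arrays of a group cannot be told apart from the shRNA. Ncoa3 itself was at 8.79, 8.88 and 8.37 on the control arrays of experiments 1, 2 and 3, and its own shRNA left it at 7.43, 7.43 and 7.39. Its change after quantile normalization was -0.97 ± 0.14 (SE over 3 arrays a group; adjusted p = 0.00747 in limma), and it did not pass without experiment 1 (0.134) or 2 (0.123). The 11 neuron markers measured, among them Snap25 and Tubb3, had mean deposited control signals from 8.43 for Prox1 to 13.24 for Stmn2. Gad2 fell (-0.42 ± 0.10, adjusted p = 0.0349 in limma) and the other 10 did not pass, where 9.04% of all genes were lower. With the experiment as a block in the fit 2 were lower, where 18.6% of all genes were.

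The 5 genes with the highest mean signal over the 6 arrays were Ccnd2, Pcna, Mcm4, Ccnb2 and Ccne1. The 9 spindle and chromosome genes, by contrast, had mean control signals from only 5.37 for Bub1b to 6.85 for Prc1. As a guide to background, 1185 olfactory receptor genes, which neurons of the hippocampus are not known for, had control signals with a 95th percentile of 7.23. Of the 32 cell cycle genes 16 lay above it: Ccnd1, Ccnd2, Ccne1, E2f1, Mcm2, Mcm3, Mcm4, Mcm6, Mcm7, Pcna, Tyms, Ccnb1, Ccnb2, Plk1, Aurka and Cdc20. Probe sets differ in how strongly they bind their target, so this order is not one of RNA amounts. All 9 spindle and chromosome genes, the proliferation marker Mki67 and the DNA decatenating enzyme Top2a included, lay under that line, as did Cdk1 and Ccna2.

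**Figure D1:**
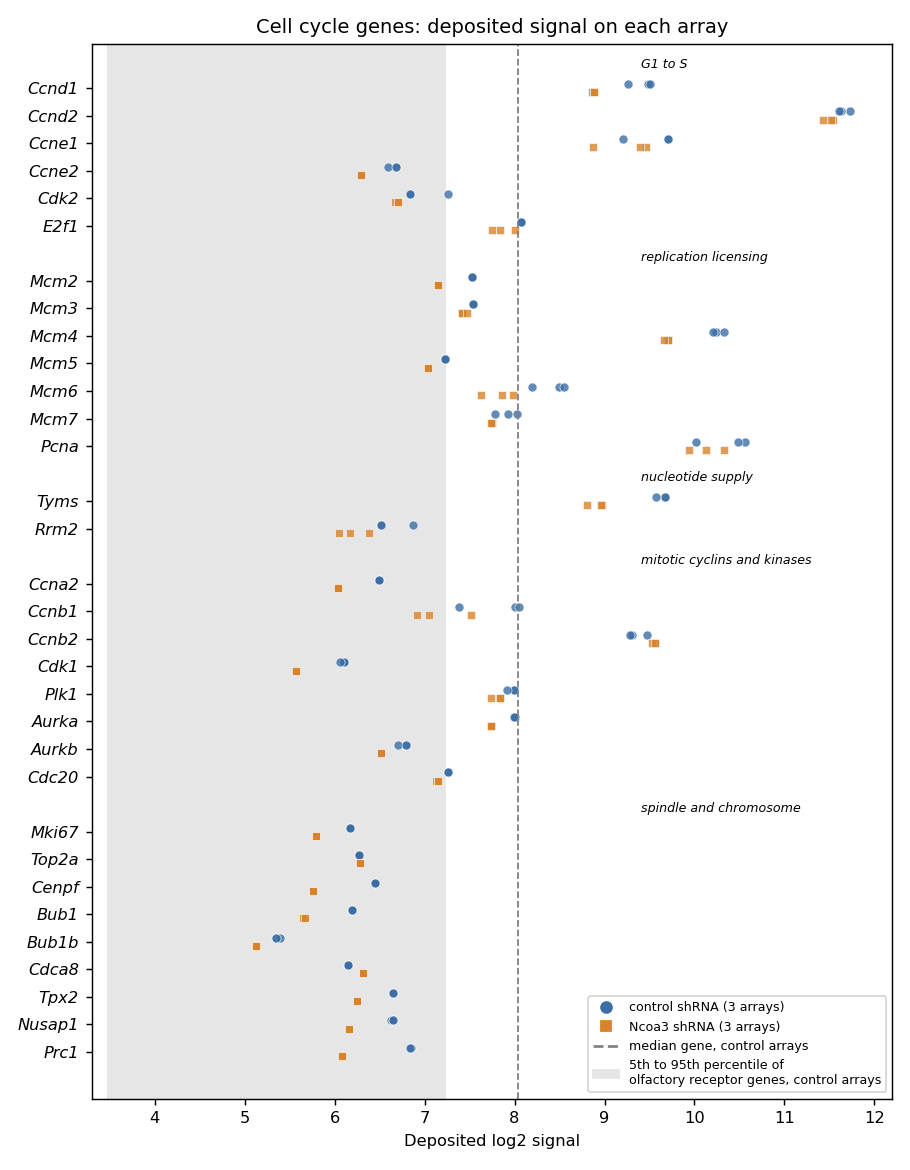
Deposited log2 signal (x axis) of the 32 measured cell cycle genes, listed by role; blue circles are the 3 control shRNA arrays and orange squares the 3 Ncoa3 shRNA arrays. The grey band spans the 5th to 95th percentile (3.49 to 7.23) of 1185 olfactory receptor genes on the control arrays, the dashed line is the median gene (8.04), and all spindle and chromosome genes lie inside the band.

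With Ncoa3 silenced, 5 of the 32 genes fell and 3 rose relative to other genes, and 24 did not pass (limma, threshold 0.05 on the adjusted p). Prc1, Tyms, Cenpf, Mcm4 and Bub1 fell, and Ccnb2, Cdca8 and Top2a rose. Over all 18166 genes 9.04% were called lower and 10.5% higher (19.5% in all). In this fit the share called among the cell cycle genes (15.6% lower and 9.38% higher) lay near that background. Their median change was -0.06, beside 0.01 over all genes. With the experiment as a block in the same fit, 13 were lower (40.6%) and 7 higher (21.9%). Over all genes 18.6% were lower and 20.8% higher there (39.3% together), so the lower share lay above that of all genes. All 8 genes with 1 deposited value per group were called there, 5 as lower and 3 as higher. Whether the shares differ was not tested. Centring each array on its median instead left Prc1 and Cenpf lower and Cdca8 higher, where 4.63% and 5.65% of all genes (10.3% together) were called. These 3 lay under the 95th percentile of the olfactory receptors, and Cenpf and Cdca8 had 1 deposited value per group. None of the 16 genes above that percentile was called with median centring. The calls also hung on single experiments: without experiment 1 or without experiment 2 none of the 32 was called by limma (7 in each case at an unadjusted p under 0.05). This loss ran through all 18166 genes: 105 were lower and 118 higher without experiment 1. Without experiment 2 no gene was called at all (3071 at an unadjusted p under 0.05). Without experiment 3, 12 of the 32 were lower and 8 higher, beside 3918 and 4436 of all genes. By direction alone, 17 genes were lower and 10 higher with Ncoa3 shRNA in all 3 experiments, beside 33.5% and 36.8% of all genes. For the 8 genes with 1 deposited value per group, the deposited difference was the same in each experiment. Their 3 experiments are therefore not separate readings of direction.

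**Figure D2:**
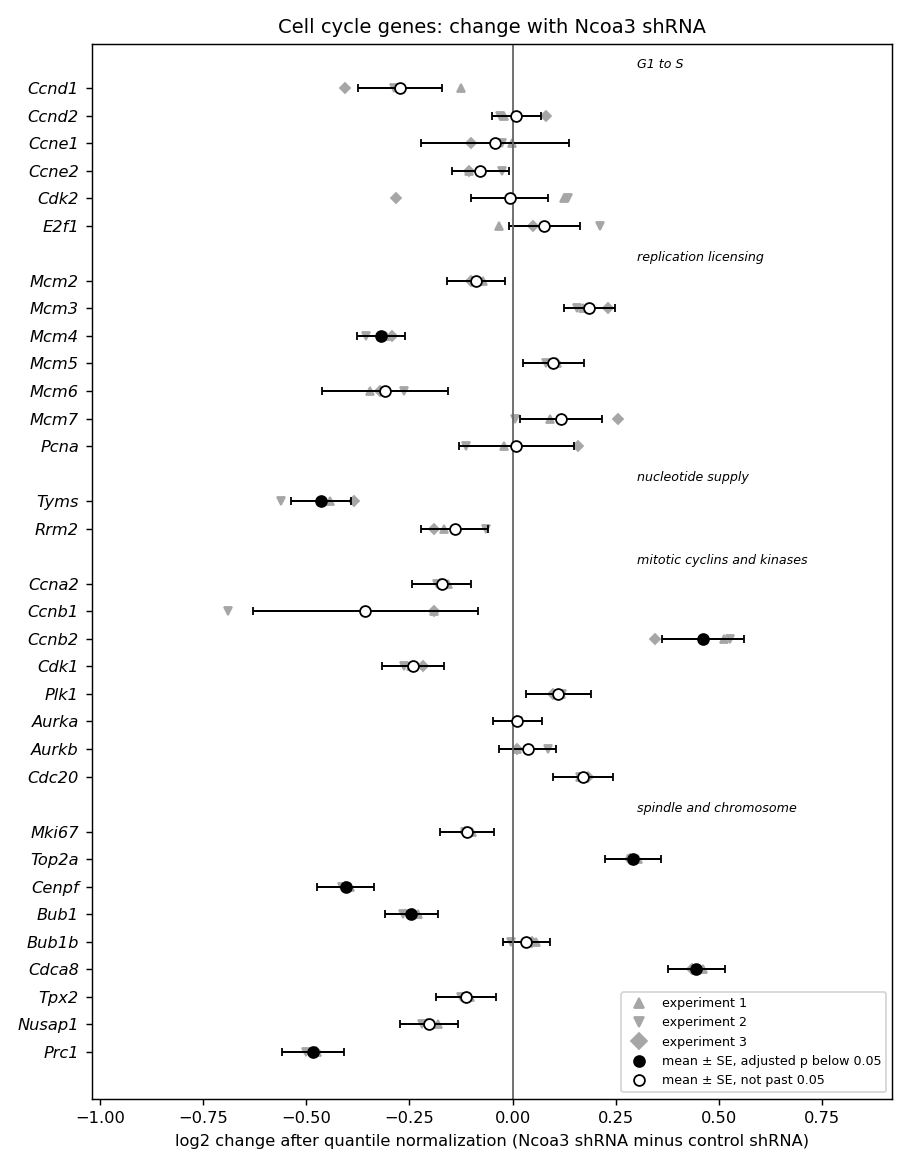
log2 change after quantile normalization (Ncoa3 shRNA minus control shRNA, x axis) of each cell cycle gene; circles with bars are the mean ± SE from limma (n = 3 per group), filled where the adjusted p was below 0.05, and grey symbols are the 3 experiments. The changes run from -0.48 for Prc1 to 0.46 for Ccnb2, and 17 genes lie below 0 and 10 above 0 in all 3 experiments.

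Of the 8 genes that passed, 7 have a promoter in the RefSeq table (build GRCr8), and 23 of the 32 measured genes do. The 250 bases before each start site were searched on both strands for 3 elements known from cell cycle promoters: the CHR element (TTTGAA or TTCGAA), through which the DREAM and MuvB complexes act, the CCAAT box (CCAAT), and an E2F-like core (the letters TTCGCGC, with TTGGCGC as a second form, TTCCCGC as another and TTGCCGC as the last). A CHR element stood in 10 of the 23 promoters (43.5%), beside 17.3% of 27457 promoters in all. A CCAAT box stood in 17 (73.9%, beside 34.3%) and an E2F-like core in 9 (39.1%, beside 7.97%). CHR and CCAAT together stood in 8 of 23, beside 6.22% of all promoters, and 4 of the 7 genes that passed had the pair: Prc1, which fell, and Ccnb2, Cdca8 and Top2a, which rose. A match is a description of the letters and not of binding. The last 120 bases before the start site are printed 5′ to 3′ on the gene's strand, with the letters of the 3 elements in capitals, for the genes that fell and had an element there and then for those that rose.
Prc1 (chr1:143659361-143659480, plus strand): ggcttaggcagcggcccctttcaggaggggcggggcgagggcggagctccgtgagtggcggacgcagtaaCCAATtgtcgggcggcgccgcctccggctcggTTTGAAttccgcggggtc
Cenpf (chr13:103760887-103761006, minus strand): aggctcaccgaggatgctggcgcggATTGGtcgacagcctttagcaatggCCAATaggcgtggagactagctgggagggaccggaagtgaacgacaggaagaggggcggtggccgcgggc
Tyms (chr9:120776084-120776203, minus strand): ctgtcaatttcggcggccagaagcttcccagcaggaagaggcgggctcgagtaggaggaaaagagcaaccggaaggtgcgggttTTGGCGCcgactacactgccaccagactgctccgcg
Ccnb2 (chr8:79981659-79981778, minus strand): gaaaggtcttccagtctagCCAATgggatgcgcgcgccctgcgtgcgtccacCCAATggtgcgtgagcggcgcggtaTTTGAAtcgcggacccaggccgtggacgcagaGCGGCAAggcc
Cdca8 (chr5:142483200-142483319, minus strand): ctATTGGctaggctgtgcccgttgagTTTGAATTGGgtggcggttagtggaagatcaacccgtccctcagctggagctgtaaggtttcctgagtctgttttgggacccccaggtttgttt
Top2a (chr10:84473094-84473213, minus strand): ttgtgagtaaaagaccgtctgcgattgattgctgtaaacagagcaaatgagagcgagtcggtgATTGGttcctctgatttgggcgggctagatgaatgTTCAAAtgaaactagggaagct
Counted back from the start site, with -1 the base before it, the CHR element begins at -18 in Prc1, -43 in Ccnb2, -94 in Cdca8 and -22 in Top2a. In Cdca8 it overlaps a CCAAT box on the other strand by its last base. Tyms has an E2F-like core at -36 and no CHR or CCAAT in the 250 bases, and Cenpf has CCAAT boxes alone. Bub1 has none of the 3 elements in its window.

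Of the 2 genes of nucleotide supply, Tyms fell and Rrm2 did not pass, where 9.04% of all genes were lower. Tyms encodes thymidylate synthase, which makes the thymidine nucleotide for DNA and is the enzyme that FUDR blocks. Its deposited signal was 9.68, 9.68 and 9.58 with control shRNA and 8.97, 8.81 and 8.96 with Ncoa3 shRNA in experiments 1, 2 and 3. The groups did not overlap, before or after quantile normalization. The change was -0.46 ± 0.073 (SE), or 1.38-fold lower (limma's adjusted p = 0.00924), and it was -0.44, -0.56 and -0.39 by experiment. The call was lost with median-centred arrays (adjusted p = 0.0952), without control shRNA replicate 1 (0.0512), without experiment 1 (0.200) and without experiment 2 (0.171). Rrm2, the regulatory subunit of ribonucleotide reductase, was at 6.52, 6.52 and 6.87 on the control arrays and at 6.05, 6.17 and 6.39 with Ncoa3 shRNA. Its change of -0.14 ± 0.082 did not pass (adjusted p = 0.289, and 0.0464 with the experiment as a block), and its second probe set gave -0.15.

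Among the 7 genes of replication licensing, Mcm4 alone passed, as lower, where 9.04% of all genes were lower and 10.5% higher. Mcm4 is a subunit of the MCM helicase that opens DNA at origins, and its deposited signal was 10.24, 10.33 and 10.20 with control shRNA against 9.70, 9.70 and 9.67 with Ncoa3 shRNA. The groups did not overlap, and the change was -0.32 ± 0.058 (SE), or 1.25-fold lower (adjusted p = 0.0150). The call was lost with median-centred arrays (0.284), with the mean of its probe sets (0.0597), and in 6 of the 9 fits that left out 1 array or 1 experiment (up to 0.252, without experiment 1). Those 6 were the fits without replicate 1 or 2 of either group and without experiment 1 or 2. Its second probe set, at a deposited mean of 9.36 on the control arrays and 9.01 on the others, gave a change of -0.08 ± 0.078 (adjusted p = 0.519). The 2 probe sets of Mcm4 thus disagree in size.

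Mcm6, a further subunit, was at 8.50, 8.55 and 8.20 on the control arrays and at 7.86, 7.99 and 7.63 with Ncoa3 shRNA. It was lower in each experiment by a similar amount (-0.35, -0.26 and -0.32). Its mean change of -0.31 ± 0.15 did not pass without the block (adjusted p = 0.213) and passed with it (0.00830), and experiment 3 was low in both groups. Mcm3 gave opposite signs on its 2 probe sets. The brighter one was at 7.53 on all 3 control arrays and at 7.41, 7.41 and 7.47 with Ncoa3 shRNA, a change of 0.19 ± 0.063 (adjusted p = 0.0918, and 0.0172 with the block). The other was at 7.50, 7.52 and 7.52 and at 6.97, 6.87 and 6.74, a change of -0.37 ± 0.11 (0.0669 with every probe set fitted). No direction can be given for Mcm3.

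Mcm2 and Mcm5 each had a single value per group. Mcm2 was at 7.53 on all control arrays and 7.15 on all Ncoa3 shRNA arrays, which is a change of -0.09 (adjusted p = 0.439, and 0.0498 with the block). Mcm5 was at 7.23 and 7.04, a change of 0.10 (0.413, and 0.0376 with the block) with the opposite sign in the deposited values (-0.19). Mcm7 changed by 0.12 (0.466) and was -0.17 in the deposited values. Pcna, the sliding clamp of the polymerases, was at 10.56, 10.48 and 10.02 with control shRNA and at 10.33, 10.12 and 9.94 with Ncoa3 shRNA. The groups overlapped, and its change was 0.0087 ± 0.14 (adjusted p = 0.976), with -0.22 in the deposited values.

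None of the 6 genes of the G1 to S transition passed in limma, with or without the block. Over all genes 39.3% were called with the block and 19.5% without it. Of the 6, Ccnd1 alone had an unadjusted p under 0.05 without the block. Ccnd2, a D-type cyclin, was at 11.73, 11.62 and 11.60 on the control arrays and at 11.54, 11.43 and 11.52 with Ncoa3 shRNA. Its deposited difference was -0.16, and its change after quantile normalization was 0.0092 ± 0.059 (adjusted p = 0.934). Ccnd1, the other D-type cyclin of the list, was at 9.26, 9.48 and 9.50 against 8.86, 8.88 and 8.88. The groups of Ccnd1 did not overlap, and its change of -0.27 ± 0.10 did not pass (adjusted p = 0.120, and 0.0511 with the block). The difference between the 2 D-type cyclins was not tested.

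Ccne1, an E-type cyclin that starts DNA replication with Cdk2, was at 9.70, 9.70 and 9.20 with control shRNA and at 9.46, 9.39 and 8.87 with Ncoa3 shRNA. The groups overlapped and its change was -0.04 ± 0.18 (adjusted p = 0.898). Ccne2 was at 6.68, 6.60 and 6.68 against 6.29 on all Ncoa3 shRNA arrays, with a change of -0.08 (0.481). The kinase gene Cdk2 stood at -0.0075 (0.968), where experiments 1 and 2 gave 0.13 each and experiment 3 gave -0.28, and without experiment 3 it passed as higher (0.13, 0.00865). E2f1, the transcription factor released at the end of G1, stood at 0.08 (0.589) and at -0.20 in the deposited values.

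Of the 8 mitotic cyclins, kinases and their regulators, Ccnb2 rose and the other 7 did not pass without the block. Over all genes 9.04% were lower and 10.5% higher in that fit. Ccnb2 encodes a B-type cyclin that activates Cdk1, and its brighter probe set was at 9.31, 9.29 and 9.47 with control shRNA and at 9.56, 9.53 and 9.56 with Ncoa3 shRNA. The groups did not overlap. The change was 0.46 ± 0.099 (SE), or 1.38-fold higher (adjusted p = 0.0247), and it was 0.51, 0.53 and 0.34 by experiment. The dimmer probe set of the same gene was at 6.52 on all control arrays and at 6.13 on all Ncoa3 shRNA arrays, a change of -0.10 ± 0.072 (adjusted p = 0.391). The probe sets disagree in sign, so the rise is that of 1 probe set. It was also lost with median-centred arrays (0.0565), with the mean of both probe sets (0.0722), among genes above the median signal alone (0.0591) and in 7 of the 9 fits with an array or experiment left out (up to 0.270). Of those 9 fits, the ones without control shRNA replicate 3 and without experiment 3 kept it.

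Ccnb1, the other B-type cyclin, had the widest spread of the 32 genes within each group after quantile normalization (SD 0.441 and 0.370). Its deposited signal was 8.002, 8.048 and 7.383 on the control arrays and 7.52, 7.05 and 6.91 with Ncoa3 shRNA, so the groups overlapped. The change of -0.36 ± 0.27 did not pass (adjusted p = 0.417, and 0.101 with the block). Cdk1, the kinase of mitotic entry, was at 6.11, 6.11 and 6.06 against 5.57 on all 3 Ncoa3 shRNA arrays, a change of -0.24 ± 0.074 (0.0712, and 0.00589 with the block). Ccna2, the cyclin of S phase and G2, was at 6.50 on all control arrays and 6.04 on all others, which is -0.17 (0.151, and 0.00961 with the block).

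The other mitotic kinases and Cdc20 did not pass without the block. Aurka was at 8.01, 8.01 and 7.99 on the control arrays and at 7.73 on all Ncoa3 shRNA arrays, which is a change of 0.01 (adjusted p = 0.922). Aurkb was at 6.79, 6.70 and 6.79 against 6.51, which is 0.04 (0.765). Plk1, the Polo kinase, was at 7.997, 7.997 and 7.921 against 7.837, 7.837 and 7.742, which is 0.11 (0.382, and 0.0402 with the block). Cdc20, which activates the anaphase-promoting complex, was at 7.26 on all control arrays and at 7.13, 7.15 and 7.15 with Ncoa3 shRNA, which is 0.17 (0.163, and 0.0122 with the block). The deposited differences of these 4 genes were negative, from -0.27 for Aurka to -0.11 for Cdc20, so their sign turned with the normalization.

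Of the 9 spindle and chromosome genes 3 fell, 2 rose and 4 did not pass, where 9.04% of all genes were lower and 10.5% higher. All 9 lay under the 95th percentile of the olfactory receptors, and several had 1 deposited value per group. Prc1, which bundles the microtubules of the central spindle, was at 6.85, 6.85 and 6.84 with control shRNA and at 6.08 on all 3 Ncoa3 shRNA arrays. Its change was -0.48 ± 0.075 (SE), or 1.40-fold lower (adjusted p = 0.00896), and the call was lost without experiment 1 (0.161) or 2 (0.167). Cenpf, a kinetochore protein, was at 6.45 on all control arrays and 5.76 on all others, a change of -0.40 ± 0.069 (0.0119), lost without control shRNA replicate 1 (0.0585) or 2, experiment 1 (0.189) or experiment 2 (0.191). Bub1, a kinase of the spindle checkpoint, was at 6.19 on all control arrays and at 5.67, 5.65 and 5.67 with Ncoa3 shRNA. It changed by -0.25 ± 0.065 (0.0471), and the call was lost with median-centred arrays (0.0874), without a variance trend (0.0550), with shared-value genes left out of the fit (0.0606) and in 7 of the 9 fits that left out an array or experiment (up to 0.364). Those that kept it were the fits without control shRNA replicate 3 and without experiment 3.

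Cdca8 and Top2a went the other way. Cdca8, the borealin subunit of the chromosomal passenger complex, was at 6.15 on all control arrays and at 6.32 on all Ncoa3 shRNA arrays. Its change was 0.45 ± 0.069, or 1.36-fold higher (adjusted p = 0.00882), lost without experiment 1 (0.175) or 2 (0.162). With 1 deposited value per group, leaving out an array could move the change of Cdca8 only through the normalization. Top2a, topoisomerase II alpha, was at 6.27 on all control arrays and 6.28 on all others. This deposited difference of 0.0093 was a change of 0.29 ± 0.069 (0.0330) after quantile normalization. The call of Top2a was lost with median-centred arrays (0.0543) and in 7 of the 9 fits with an array or experiment left out (up to 0.320), all but those without Ncoa3 shRNA replicate 3 and without experiment 3.

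The remaining spindle and chromosome genes did not pass without the block. Mki67, the proliferation marker Ki-67, was at 6.18 on all control arrays and 5.79 on all others, a change of -0.11 ± 0.066 (adjusted p = 0.302, and 0.0214 with the block). Tpx2, which activates Aurora A on the spindle, was at 6.65 and 6.25, which is -0.11 (0.329, and 0.0220 with the block). Nusap1, a spindle-associated protein, was at 6.63, 6.65 and 6.65 against 6.16 on all Ncoa3 shRNA arrays, which is -0.20 (0.102, and 0.00795 with the block). Bub1b, the checkpoint protein BubR1, was at 5.35, 5.39 and 5.35 against 5.13, which is 0.03 (0.732) after normalization and -0.24 before it.

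In the deposited values, before any offset is taken off, nearly all of these genes were lower with Ncoa3 shRNA. Of the 32, 21 passed as lower (65.6%) and 3 as higher (9.38%), where 43.3% of all genes were lower and 3.97% higher (47.2% together). With the experiment as a block these counts were 24 and 1, with Top2a (0.0640) and Ccnb2 (0.0555) no longer passing as higher and Ccnd2 (0.0428), Ccne1 (0.00979) and Rrm2 (0.0100) now lower, where 55.9% and 4.33% of all genes (60.2% together) were called. The signals of the groups did not overlap for 26 genes that were lower and 3 that were higher, beside 55.6% and 5.36% of all genes. After quantile normalization 9 lay lower and 5 higher without overlap, beside 19% and 21.5% of all genes. The median deposited difference was -0.33 for the cell cycle genes and -0.25 for all genes. For 11 genes the sign was negative in the deposited values and positive relative to other genes: Ccnd2, E2f1, Mcm3, Mcm5, Mcm7, Pcna, Plk1, Aurka, Aurkb, Cdc20 and Bub1b.

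**Figure D3:**
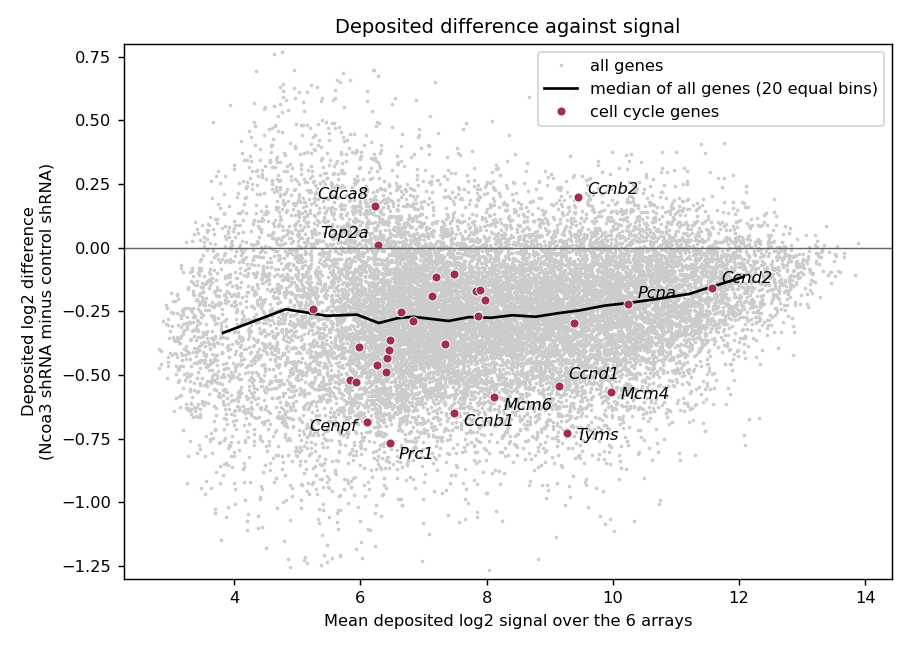
Deposited log2 difference (Ncoa3 shRNA minus control shRNA, y axis) against the mean deposited log2 signal over the 6 arrays (x axis) for all genes (grey), with the median of 20 equal bins (black line) and the 32 cell cycle genes (red); 24 genes lie outside the y axis. Prc1 (-0.77), Tyms (-0.73) and Cenpf (-0.68) sit below the line, Ccnb2 (0.20) and Cdca8 (0.16) above it, and Ccnd2 (-0.16) and Pcna (-0.22) close to it.

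Shared values bear on what these p-values mean. The deposited value was the same on all 3 control arrays for 12 of the 32 genes (22.5% of all genes) and on all 3 Ncoa3 shRNA arrays for 15 (22.4%). It was shared on all arrays of both groups for 8: Mcm2, Mcm5, Ccna2, Mki67, Top2a, Cenpf, Cdca8 and Tpx2 (10.7% of all genes). For those 8 the deposited spread within a group was 0, and the spread after quantile normalization came from the normalization alone. So a deposited difference as small as that of Top2a passed limma's test (adjusted p = 0.0289), and it did not with the experiment as a block (0.0640). Ccnd2, Mcm6, Pcna and Ccnb1 shared no value at all, and none of these 4 passed in the fit without the block. Tyms, Mcm4 and Ccnb2 were the called genes above the 95th percentile of the olfactory receptors, and each had differing values on at least some arrays of both groups.

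The experiments differed from each other in some of these genes. After quantile normalization, Ccne1, Mcm6 and Ccnb1 were lower in experiment 3 than in the mean of experiments 1 and 2 by at least 0.25 in both groups, as were 10.8% of all genes, and none of the 32 was higher by as much, where 5.19% were. Ccnb1 differed most, by -0.76 in the control and -0.51 in the Ncoa3 shRNA arrays. Ccne1 differed by -0.40 and -0.49, and Mcm6 by -0.36 and -0.37. Pcna differed by -0.41 in the control arrays and by -0.18 in the others. Tyms and Mcm4 hardly did so, with 0.01 and 0.03 in the control arrays and 0.13 and 0.06 with Ncoa3 shRNA.

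**Figure D4:**
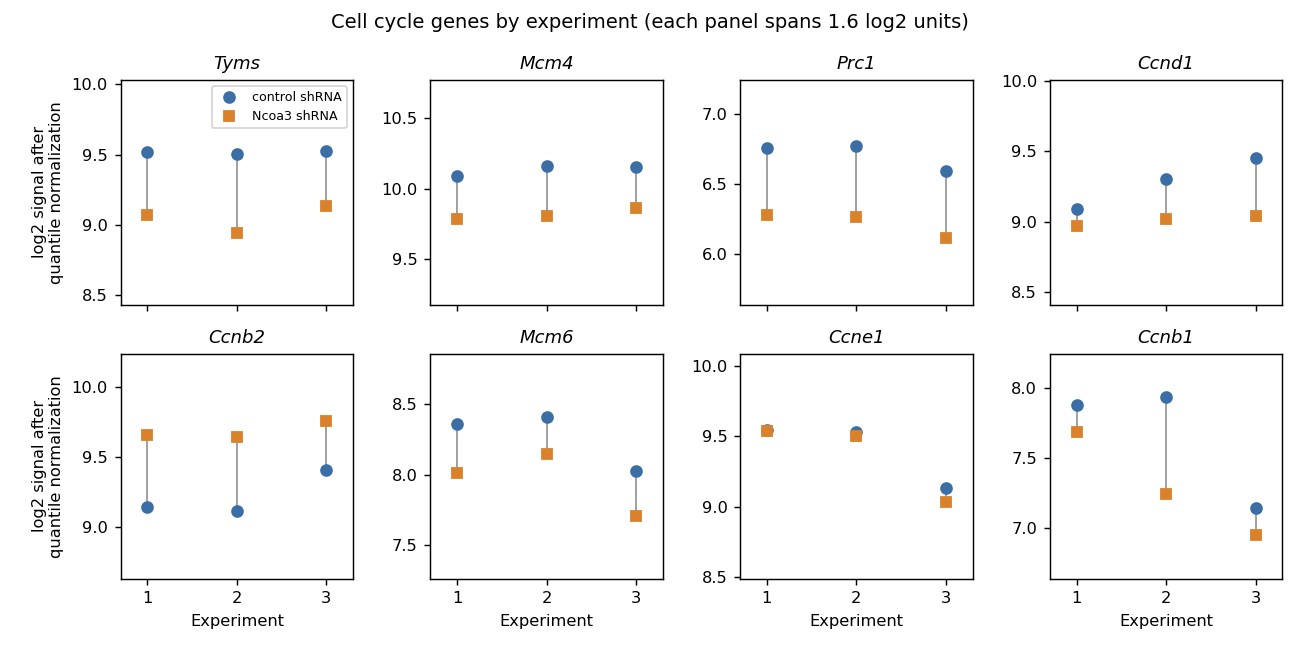
log2 signal after quantile normalization (y axis, 1.6 log2 units in each panel) of 8 cell cycle genes in experiments 1, 2 and 3 (x axis); blue circles are control shRNA, orange squares Ncoa3 shRNA, and the grey line joins the arrays of an experiment. Tyms, Mcm4, Prc1, Ccnd1, Mcm6 and Ccnb1 are lower and Ccnb2 is higher with Ncoa3 shRNA in each experiment, while Ccne1, Mcm6 and Ccnb1 are low in experiment 3 in both groups.

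Other genes of the cycle were read from lists of the same kind. Of 31 other kinetochore, condensin and mitotic spindle genes 8 fell, 3 rose and 20 did not pass, with a median change of -0.09, where 9.04% of all genes were lower and 10.5% higher. In the deposited values 21 of them were lower and 1 higher, beside 43.3% and 3.97% of all genes. With the experiment as a block, after quantile normalization, 14 were lower and 5 higher, beside 18.6% and 20.8% of all genes. The 4 with the largest changes were all lower: Cenpi, a centromere protein (-0.94 ± 0.067, adjusted p = 8.97e-04), Hmmr, a spindle and hyaluronan-binding protein (-0.73), the condensin subunit Smc2 (-0.61) and Ndc80, which ties kinetochores to microtubules (-0.41). Cenpi and Ndc80 had 1 value per group, and 6 of the 31 genes lay above the 95th percentile of the olfactory receptors. Smc2 was among these, and Cenpi, Hmmr and Ndc80 were not. Of 32 other replication factors 2 fell and 3 rose (9.04% and 10.5% of all genes). The counts were 4 and 9 with the block (18.6% and 20.8% of all genes) and 15 and 3 in the deposited values (43.3% and 3.97%). Those called without the block included Rfc1, the large subunit of the clamp loader (-0.49), and Gmnn, geminin, which blocks relicensing (-0.47), against Gins1, a subunit of the replicative helicase complex (0.52), and Orc1, of the origin recognition complex (0.42). On the control arrays Gmnn, Gins1 and Orc1 lay under the 95th percentile of the olfactory receptors.

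CDK inhibitors, Rb and E2F genes and further regulators and enzymes of the cycle were read in the same way. Without the block 9.04% of all genes were lower and 10.5% higher, and with it 18.6% and 20.8%. Of 7 CDK inhibitors 2 rose, Cdkn2c (0.42) and Cdkn2b (0.28), and the other 5 did not pass, where 10.5% of all genes were higher. The sign of Cdkn2b turned with the normalization, since its deposited difference was -0.0017 (adjusted p = 0.855). With the block 4 CDK inhibitors were higher. Of 16 genes of the Rb and E2F family 2 fell and 14 did not pass: Rb1, the retinoblastoma gene that holds E2F in check (-0.33), and the repressor E2f6 (-0.52), and with the block 4 were lower and 1 higher. Of 7 other G1 cyclins and kinases Ccnh fell (-0.25) and the other 6 did not pass. Among 20 other enzymes of nucleotides and fluoropyrimidines 2 rose, Upp2, a uridine phosphorylase (0.32), and Shmt2, of mitochondrial folate metabolism (0.27), and with the block 1 was lower and 4 were higher. Neither Upp2 nor Shmt2 passed in the deposited values (adjusted p = 0.0894 and 0.309). Of 12 checkpoint kinases and CDC25 genes Cdc25c rose (0.28), with a deposited difference of the other sign (-0.0078, adjusted p = 0.120), and with the block 1 was lower and 3 were higher. Of 18 genes around the anaphase-promoting complex Cdc26 fell (-0.42) and the inhibitor Fbxo5 rose (0.43), and with the block 4 were lower and 3 higher. Fbxo5 did not pass in the deposited values (adjusted p = 0.131). On the control arrays Cdkn2c, Upp2, Cdc25c and Fbxo5 lay under the 95th percentile of the olfactory receptors.

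Markers of glia, neural progenitors, fibroblasts and endothelium were read beside these genes. In the fit without the block 9.04% of all genes were lower and 10.5% higher. Of 9 astrocyte markers 1 rose (Fgfr3) and 8 did not pass, and their mean signal after quantile normalization was 9.42 to 9.83 on the control and 9.36 to 9.87 on the Ncoa3 shRNA arrays. Of 9 markers of the oligodendrocyte lineage 2 fell (Sox10 and Mog) and 2 rose (Cnp and Pdgfra), at 7.95 to 8.01 and 7.96 to 8.06. Of 10 microglia markers 1 fell (Ptprc) and 2 rose (Cx3cr1 by 0.99 and Aif1 by 0.43), at 6.28 to 6.32 and 6.39 to 6.56, and 3 of the 10 lay above the 95th percentile of the olfactory receptors. Of 10 neural progenitor markers 1 rose (Pax6) and 9 did not pass, at 8.94 to 8.96 and 9.02 to 9.07. Of 8 fibroblast and endothelial markers 1 fell (Flt1) and 1 rose (Dcn), at 7.53 to 7.65 and 7.62 to 7.75. In limma on the deposited values Fgfr3 (adjusted p = 0.141), Cnp (0.324), Cx3cr1 (0.109), Pax6 (0.173) and Dcn (0.0948) did not pass. The other named markers passed there, and with the block so did Cx3cr1 (0.0189) and Dcn (0.00527). The deposited differences of Fgfr3 and Pax6 were only 0.015 and 0.025. Pdgfra, Ptprc, Cx3cr1, Aif1 and Flt1 lay under the 95th percentile of the olfactory receptors. With the block, after quantile normalization, the counts of lower and higher markers were 1 and 1 for astrocytes, 2 and 3 for the oligodendrocyte lineage, 2 and 3 for microglia and 3 and 3 for fibroblasts and endothelium, and 3 progenitor markers were higher. Of all genes 18.6% were lower and 20.8% higher in that fit. After quantile normalization the microglia and progenitor means were higher with Ncoa3 shRNA without overlap. In the deposited values the progenitor means lay the other way, at 9.08 on the control arrays and 8.90 to 8.94 on the others, and the microglia means overlapped, at 6.39 to 6.55 and 6.20 to 6.51. The part of any of these cells in the cell cycle genes was not tested.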

How the data were processed

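The deposited table holds log2 signals of 36685 probe sets on 6 single-colour Affymetrix arrays. Per the submitters' processing notes, the authors used Affymetrix Expression Console. The sources used here do not give its version, how it summarised and normalized the probes, or a genome build. RNA came from the mirVana kit, per the labels' protocols. Probe sets were named from the platform annotation, which can be old: 18511 had a single symbol, and the brightest of each gene was kept (18166 genes). All 6 arrays were quantile-normalized over all probe sets. Tests used limma 3.58.1 (R 4.3.3; lmFit, eBayes with a trend, two-sided, Benjamini-Hochberg over all genes, threshold 0.05). The method was tested on simulated data with independent noise, no shared values and no experiment effect. That test does not cover these features of the deposited arrays.

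Experiment numbers pair the arrays, per the labels. Deviations from the group means correlated over genes at 0.748, 0.565 and 0.805 within experiments 1, 2 and 3. Across experiments 1 and 2 they correlated at 0.542 (control of 2, Ncoa3 shRNA of 1) and 0.331 (control of 1, Ncoa3 shRNA of 2). Across experiment 3 and either other the values were negative, from -0.756 to -0.542. The blocked value is given where it changes a call of a cell cycle gene or a count of a list.

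The cell cycle genes and the other lists were chosen with earlier results of these data known. All measured members are described, with the values of each array for those past the threshold in the deposited or quantile-normalized values and for the 5 brightest. From each other list at most 4 genes past the threshold are named, by size of change. Alternatives were the deposited values, the block, median centring, a signal filter, probe set averaging, no trend, leaving out genes with shared values, and leaving out each array or experiment. Fitting every probe set, and not counting members with shared values, were added after seeing the data. Promoters are RefSeq's (GRCr8), from a table that is not complete. Figures were drawn with matplotlib.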

Additional observations from a re-analysis of the deposited data

How the results depend on the processing

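The number of arrays and the signal near background limit these results. Of the cell cycle genes, 5 were called lower and 3 higher. These counts were 21 and 3 with the deposited values, 13 and 7 with the experiment as a replicate block, 24 and 1 with the deposited values and the block, 2 and 1 with median-centred arrays, 2 and 0 among genes above the median signal (1 higher at an unadjusted p under 0.05), 3 and 1 with shared-value genes left out, and 4 and 1 with shared-value members not counted. With an array or experiment left out they ran from 0 to 12 and from 0 to 8. Over all genes, 1643 were lower and 1905 higher, and these counts became 7857 and 722, 3370 and 3777, 10146 and 786, 841 and 1027, and 213 and 220 under the first 5 of those settings in the same order. They ran from 0 to 3918 and from 0 to 4436 with an array or experiment left out. The count of 0 in limma was without experiment 2, where 3071 genes had an unadjusted p under 0.05.

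The median change of the cell cycle genes (-0.06) was -0.33 in the deposited values, with or without the block, and -0.025 with shared-value genes left out. It ran from -0.12 to -0.023 with an array or experiment left out. Ncoa3 kept its direction in each setting run, with changes from -1.15 to -0.86 on leaving out an array or experiment, and did not pass without experiment 1 (-0.92, adjusted p = 0.134) or 2 (-0.88, 0.123).

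With the deposited values, with or without the block, the sign turned for Ccnd2 (-0.16), E2f1 (-0.20), Mcm3 (-0.10), Mcm5 (-0.19), Mcm7 (-0.17), Pcna (-0.22), Plk1 (-0.17), Aurka (-0.27), Aurkb (-0.25), Cdc20 (-0.11) and Bub1b (-0.24). The mean of its probe sets turned Mcm3 to -0.091. Leaving out an array or experiment turned the sign of 8 genes, none of them called in the fit with all arrays: the ranges were -0.026 to 0.054 for Ccnd2, -0.18 to 0.12 for Ccne1, -0.078 to 0.13 for Cdk2, -0.0040 to 0.13 for E2f1, -0.13 to 0.10 for Pcna, -0.013 to 0.037 for Aurka, -0.0021 to 0.086 for Aurkb and -0.0075 to 0.068 for Bub1b. Cdk2 passed without experiment 3 (0.13, adjusted p = 0.00865). The cause of these changes was not tested.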
